A study of Mus musculus with 12 samples.

Results

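The genes described here encode the BMP and TGF-beta pathway: ligands, receptors, Smad proteins, extracellular regulators and the Id target genes. They were chosen by gene symbol alone, as the probes of a whole mouse genome array whose gene name is a BMP, GDF, TGF-beta, inhibin or activin ligand (Gdf15 left out), one of their receptors, a Smad or Smurf, Noggin, Chordin, a Gremlin, a latent TGF-beta binding protein (Ltbp) or an Id gene. The rule gave 95 probes of 61 genes, out of 41174 probes with 27962 gene names. Hypertrophic zones were microdissected from the tibial growth plates of mice aged 14 days, and the RNA of each of the 12 mice, amplified and labelled with Cy3, was hybridized to its own single-colour array. Schmid mice carry the Col10a1 p.Asn617Lys knock-in on both alleles, a change that causes collagen X to misfold. Cog mice carry ColXTgcog, a transgene in which the Col10a1 promoter drives the misfolding cog form of thyroglobulin in hypertrophic chondrocytes. Mice with the transgene on 1 and on both chromosomes were not told apart. Each mutant was compared with wildtype mice of its own background, with 3 mice in each of the 4 groups.

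BMPs and TGF-betas are secreted dimers that bind paired type I and type II receptor kinases. BMP receptors phosphorylate Smad1, Smad5 and Smad9, TGF-beta and activin receptors phosphorylate Smad2 and Smad3, and both sets act in the nucleus with Smad4. In the growth plate, BMP signalling promotes chondrocyte proliferation and hypertrophy, and TGF-beta signalling restrains terminal differentiation. TGF-beta is stored in the matrix in a latent form bound to Ltbp proteins, and Chordin and Noggin trap BMPs outside the cell.

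Signals are given as log2 of the normalized intensity, and a change as a log2 fold change of mutant over its wildtype. A probe was counted as changed (called) at a Benjamini-Hochberg adjusted p of 0.05 or less, over all 41174 probes, and a change of at least 2-fold, by the moderated test of limma. All p values below are these adjusted values unless called unadjusted. The share of all probes with an unadjusted p under 0.05, or passing the adjusted p alone, was not computed. Counts at those limits therefore have no background beside them. The share of spots well above background, by the scanner software's flag, ran from 39.6 to 61.8% over the arrays, and the negative control signal was lower on the Schmid arrays (201.9 to 617.5) than on the others (977.2 to 1894). Mutant and matching wildtype arrays never lay on the same slide, and in every comparison below slide and genotype cannot be told apart. Of 7 hypertrophic chondrocyte markers, Col10a1, the gene altered in Schmid, was well above background on all 12 arrays. Its change was -0.02 ± 0.62 (standard error) in Schmid (adjusted p = 0.987), with overlap. In Cog it was 1.0 ± 0.62 (adjusted p = 0.387), with all 3 Cog arrays above their wildtype. Others of these markers were called lower, namely Ihh, Akp2 and Pthr1 in Schmid and Ihh in Cog, as given below. The microdissected tissue is a bulk sample, in which fewer cells of a type and less RNA per cell cannot be told apart.

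In the Schmid hypertrophic zone, 11 of the 95 probes, from 10 genes, were called lower and 1 was called higher. The genes that fell were Tgfb3, Tgfb1, Inhbb, Bmp7, Bmp8a, Bmp1, Chrd, Ltbp3, Ltbp4 and Id3. Lower calls made up 11.6% of the member probes, against 4.69% of all probes, and higher calls 1.05%, against 5.78% of all probes. The share of all probes called lower depended on the signal and scaling, and it was 9.68% with the scanner's processed signal and quantiles (13.7% of the members), 9.79% with that signal at the 75th percentile (15.8%) and 8.39% with the background-corrected signal at the 75th percentile (14.7%). With a smooth trend over array rows and probe GC content removed it was 3.37% (6.32% of the members). In Cog, 3 probes were called lower (Inhbb, Id3 and Id4), which is 3.16% against 0.748% of all probes, and 1 (Chrd) was called higher, which is 1.05% against 1.56% of all probes. The median change over the 95 probes was -0.01 in Schmid and -0.05 in Cog, beside -0.06 and 0 over all probes.

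By role, beside the 4.69% of all probes, the lower calls in Schmid took 5 of the 13 probes of extracellular regulators, 3 of the 8 of TGF-beta and activin ligands, 2 of the 14 of BMP ligands and 1 of the 7 of Id genes. None of the 10 GDF probes, 23 receptor probes or 20 Smad and Smurf probes was called lower, and these counts by role were not tested against each other. All 3 Schmid arrays lay below all 3 of their wildtype arrays for 28 probes and above them for 9, together 38.9% of the member probes, against 45.4% of all probes. In Cog the same separation was found downward for 13 probes and upward for 16, together 30.5%, against 29.4% of all probes.

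Signal strength bears on these counts. Of the 95 probes, 36 (29 genes) were well above background on every array and 15 on none. Among those 36 probes, 9 were called lower and none higher in Schmid, which is 25.0%, while 19.4% of the 12805 probes of the array with the same detection were called in either direction. In Cog, 3 of the 36 were called (8.33%, against 4.26%). For 9 genes (Acvr2b, Acvrl1, Bmp15, Bmp8b, Bmpr1b, Gdf2, Gdf3, Gdf6 and Gdf8) none of the 12 arrays had a probe well above background.

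**Figure D1:**
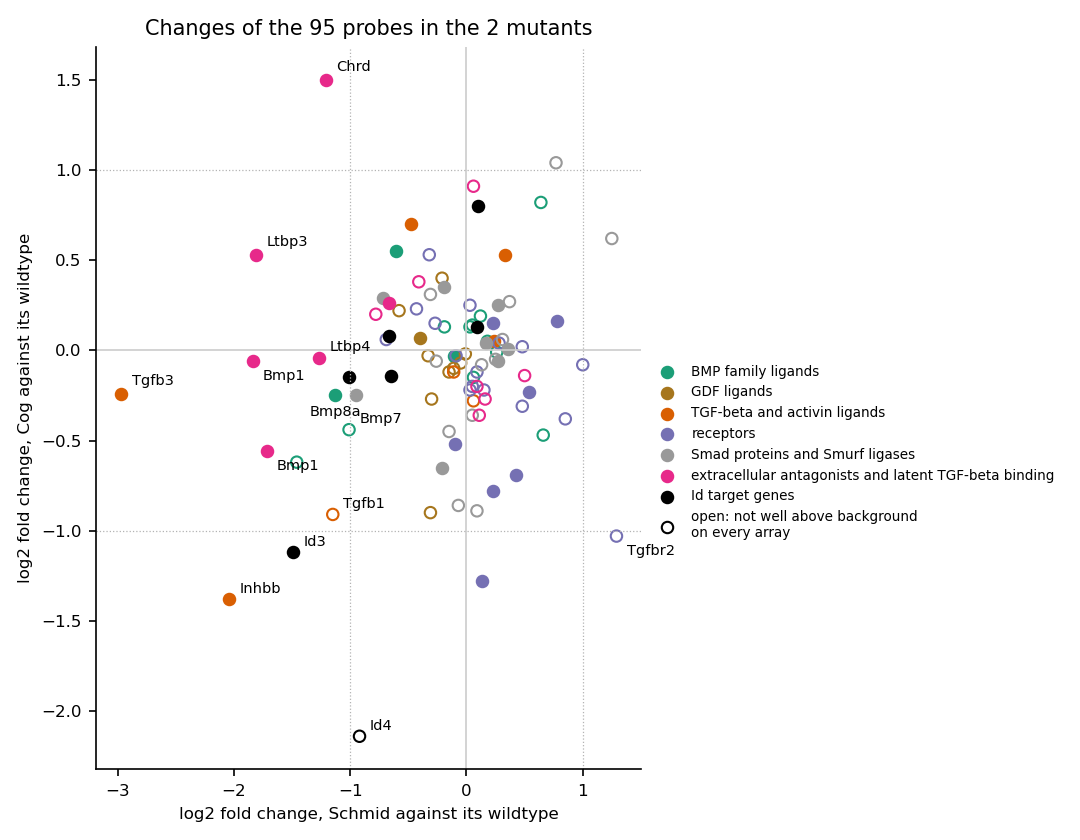
Log2 fold change in Schmid (horizontal) against that in Cog (vertical) for each of the 95 probes, coloured by role, with open symbols for probes not well above background on every array and dotted lines at a 2-fold change. Tgfb3, Bmp1, Ltbp3 and Ltbp4 lie far to the left near the horizontal zero line, Inhbb and Id3 lie low in both mutants, and Chrd is low in Schmid (-1.21) and high in Cog (1.5).

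The stretches before the gene start are shown for Inhbb, Id3, Id4 and Chrd, since these are the 4 genes called in Cog and 3 of them (Inhbb, Id3 and Chrd) were also called in Schmid. Each is the 250 bases upstream of the RefSeq gene start on GRCm38.p6, 5′ to 3′ on the strand of the gene, and the capitals mark GGCGCC, a GC-rich motif found in BMP-responsive Smad elements. Inhbb lies at chr1:119422249-119422498 on the minus strand, Id3 at chr4:136143572-136143821, Id4 at chr13:48260866-48261115 and Chrd at chr16:20732877-20733126, these last on the plus strand.
Inhbb: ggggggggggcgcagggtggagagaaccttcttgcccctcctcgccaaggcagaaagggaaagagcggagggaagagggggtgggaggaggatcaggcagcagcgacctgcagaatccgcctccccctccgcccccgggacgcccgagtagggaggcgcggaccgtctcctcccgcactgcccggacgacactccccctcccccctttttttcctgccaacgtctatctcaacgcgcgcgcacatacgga
Id3: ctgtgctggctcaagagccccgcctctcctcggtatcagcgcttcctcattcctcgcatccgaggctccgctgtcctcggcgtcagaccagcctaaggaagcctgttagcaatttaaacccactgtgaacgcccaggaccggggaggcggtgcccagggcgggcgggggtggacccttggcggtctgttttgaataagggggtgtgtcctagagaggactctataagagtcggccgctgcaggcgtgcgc
Id4: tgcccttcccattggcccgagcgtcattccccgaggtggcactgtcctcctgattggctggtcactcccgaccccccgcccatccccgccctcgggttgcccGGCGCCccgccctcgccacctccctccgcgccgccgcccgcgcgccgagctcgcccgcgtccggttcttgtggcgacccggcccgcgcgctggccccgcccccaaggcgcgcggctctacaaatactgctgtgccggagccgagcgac
Chrd: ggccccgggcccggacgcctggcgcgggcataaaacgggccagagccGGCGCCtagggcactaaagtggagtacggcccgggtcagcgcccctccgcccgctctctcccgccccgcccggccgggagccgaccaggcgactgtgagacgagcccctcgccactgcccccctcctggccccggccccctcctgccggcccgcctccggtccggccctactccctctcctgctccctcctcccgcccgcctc
Counted from the gene start, the motif begins at -148 for Id4 and -203 for Chrd, and these letters are not in the windows of Inhbb and Id3. RefSeq windows of 300 bases (250 before to 50 after the start) were at hand for 44 of the 61 genes, as 54 sequences. GGCGCC, a palindrome and so the same on both strands, was in 16 of them (29.6%), against 11.9% of all 32851 such windows. Overlapping windows of Ltbp4, and of Smad5, hold the same site and count it again. The GC content of the windows was not compared, and the shares were not tested. Of the genes called in either mutant, Ltbp4 also held it, at -184 and -169 in overlapping windows, while most of the genes that held it, Smad5, Bmpr2 and Tgfbr1 among them, were not called. Tgfb3 and Bmp1, both called in Schmid, were among the genes without a window and were not searched. The palindrome GTCTAGAC, a Smad box, was found in the Smad6 window only (1.85%, against 0.213% of all windows), and the cyclic AMP response element TGACGTCA in the Ltbp1 window only (1.85%, against 1.79%). The letters TTGCATCA, a composite element of C/EBP and ATF factors, were in none of the 54 windows and in 0.895% of all. These matches are descriptions of sequence and not sites of binding.

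Tgfb3 encodes one of the 3 TGF-beta ligands, and it showed the largest change of the 95 probes in Schmid. Its log2 signal was 12.57, 12.52 and 12.25 on the Schmid arrays and 15.38, 15.49 and 15.37 on their wildtype arrays. On the Cog arrays it was 15.18, 15.01 and 15.7, and on theirs 15.49, 15.42 and 15.7. The Schmid values lay below all 9 others, while the Cog values overlapped those of their wildtype. The change in Schmid was -2.97 ± 0.17 (standard error), a fold change of -7.83 (adjusted p = 2.1e-05), and that in Cog was -0.24 ± 0.17 (adjusted p = 0.464). The probe is annotated to NM_009368 at mm7 chr12:84058334-84058393. The call in Schmid held in all 24 alternative settings, between -3.33 and -2.87.

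Of the other TGF-betas, 1 was called in Schmid. Tgfb1, the isoform best known from bone matrix and blood platelets, read 10.12, 10.16 and 10.13 in Schmid and 10.74, 11.43 and 11.68 in its wildtype. In Cog it read 10.29, 10.14 and 10.43, and in its wildtype 10.31, 11.52 and 11.74. The Schmid arrays all lay below their wildtype, and 1 wildtype array of the Cog background lay as low as the Cog arrays. Tgfb1 fell by 1.15 on the log2 scale in Schmid (adjusted p = 0.0346) and differed by -0.91 in Cog (adjusted p = 0.161). The Schmid call was lost without any one of Schmid replicates 1, 2 and 3 or wildtype replicates 2 and 3 (adjusted p 0.0791 to 0.112), and once a smooth trend over array rows and probe GC content was removed (-0.83, adjusted p = 0.0573). Tgfb2 was not called in either mutant, at -0.48 in Schmid (adjusted p = 0.265), against 0.70 for Cog (adjusted p = 0.214).

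Inhbb encodes the beta B subunit of activin B and inhibin B, and its brighter probe fell in both mutants. The log2 signal was 10.47, 10.83 and 10.95 in Schmid and 12.62, 13.15 and 12.59 in its wildtype. In Cog it was 12, 11.54 and 11.78, and in its wildtype 13.4, 13.04 and 13.01. Neither mutant overlapped its wildtype. The change was -2.04 ± 0.20 in Schmid (fold change -4.1, adjusted p = 2.2e-04), against -1.38 ± 0.20 for Cog (fold change -2.6, adjusted p = 0.00734). Schmid and Cog did not pass the test of a difference in this change (-0.66 ± 0.28, adjusted p = 0.136). The call in Schmid held in all 24 alternative settings, and that in Cog in 22, being lost with the scanner's processed signal scaled to the 75th percentile (-1.29, adjusted p = 0.108) and when tested against a 2-fold change.

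A second Inhbb probe gave another picture. It is annotated to the same transcript, NM_008381, but lies at mm7 chr1:119278359-119278418, against chr1:119276025-119276084 for the brighter one. Its signal was 10.63, 10.81 and 10.58 in Schmid, 10.15, 10.62 and 10.54 in its wildtype, 11.23, 10.85 and 10.43 in Cog and 10.79, 10.69 and 10.89 in its wildtype. It was well above background on all 12 arrays and overlapped between mutant and wildtype in both comparisons. Its changes were 0.24 in Schmid (adjusted p = 0.399), against 0.05 for Cog (adjusted p = 0.913), so the lower Inhbb signal rests on 1 of 2 probes. The remaining inhibin genes were not called. Inhba, the beta A subunit of activin A, read 0.33 higher in Schmid (adjusted p = 0.549) and 0.53 higher in Cog (adjusted p = 0.45), and the 2 probes of Inha, the alpha subunit, had log2 fold changes of 0.06 and -0.11 in Schmid.

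**Figure D2:**
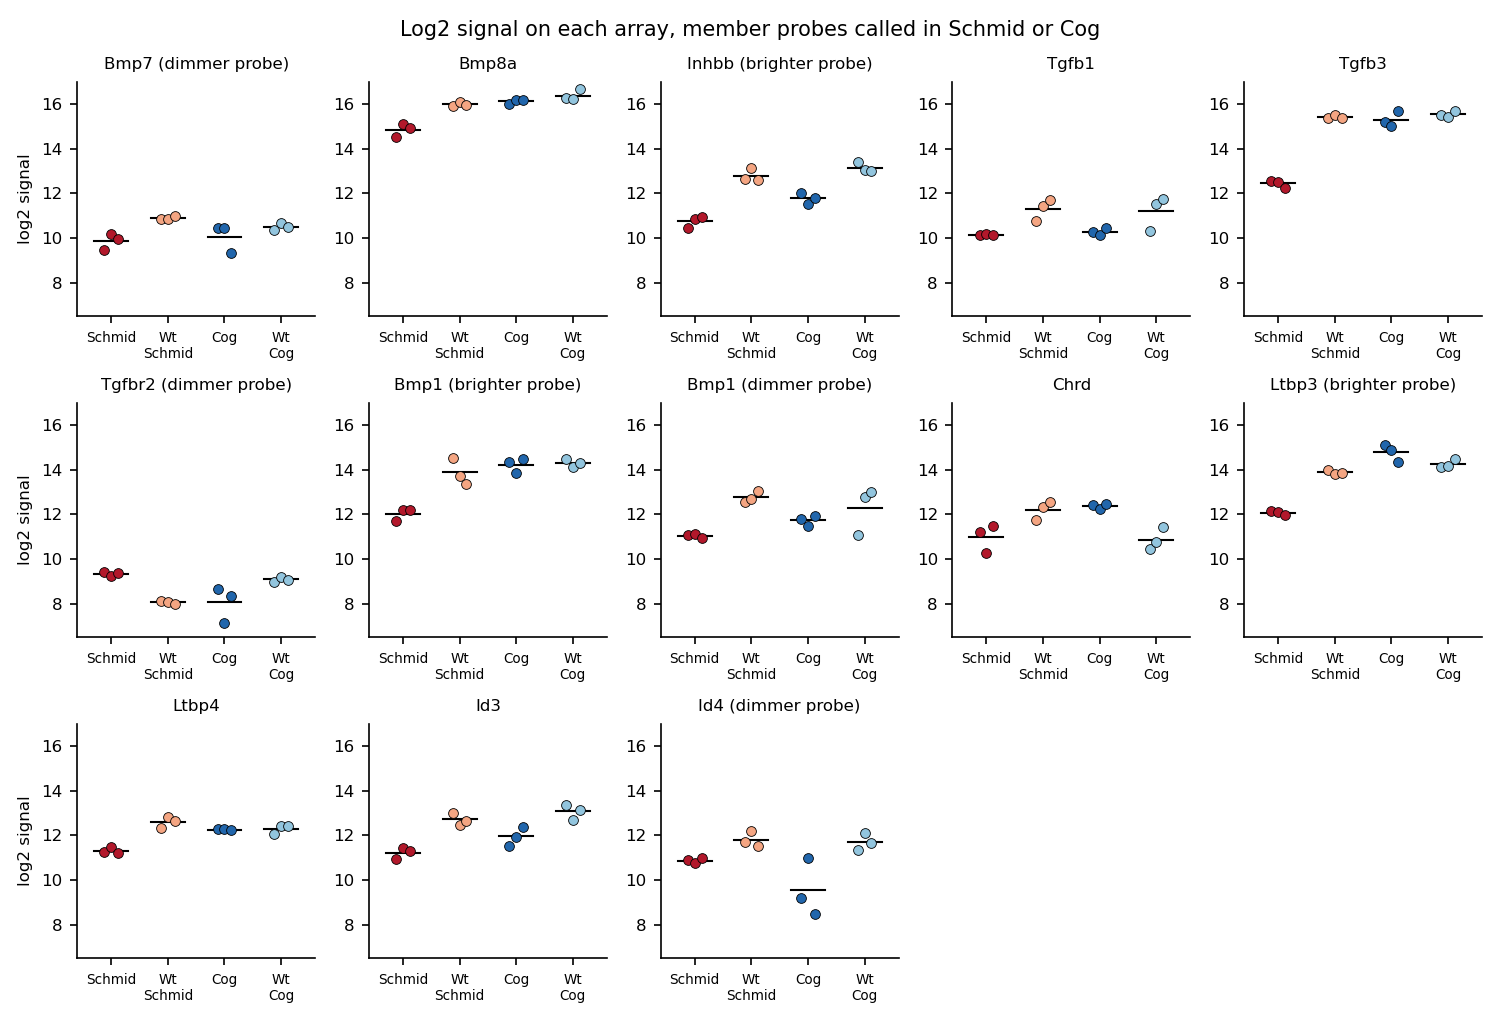
Log2 signal on each of the 3 arrays of the 4 groups (points) with the group mean (line), for the 13 probes called in Schmid or Cog. Tgfb3, Ltbp3, Ltbp4 and both Bmp1 probes have all Schmid points below all points of their wildtype, Inhbb and Id3 are low in both mutants, and the dimmer Id4 probe spreads from 8.5 to 10.98 over the Cog arrays.

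Among the BMP ligands, Bmp8a and Bmp7 fell in Schmid. Bmp8a, a member of the BMP7 subgroup, read 14.53, 15.08 and 14.94 in Schmid and 15.92, 16.07 and 15.93 in its wildtype. It read 15.99, 16.19 and 16.19 in Cog and 16.25, 16.2 and 16.67 in its wildtype. Every Schmid array lay below the other 9. The change was -1.13 ± 0.17 in Schmid (adjusted p = 0.00146), against -0.25 ± 0.17 for Cog (adjusted p = 0.431). Without Schmid replicate 1 the Schmid change was -0.97, and with the row and GC trend removed -0.92, each below the 2-fold limit with an adjusted p of 0.00542 and 0.00589.

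Bmp7, a ligand of skeletal and kidney development, was measured by 2 neighbouring probes. The dimmer one, the mean of 10 spots, read 9.46, 10.2 and 9.95 in Schmid, 10.83, 10.84 and 10.97 in its wildtype, 10.44, 10.44 and 9.32 in Cog and 10.37, 10.66 and 10.49 in its wildtype. It fell by 1.01 on the log2 scale in Schmid (adjusted p = 0.0301), just past the 2-fold limit, and differed by -0.44 in Cog (adjusted p = 0.415). The brighter one read 8.78, 10.56 and 10.16 in Schmid and 11.45, 10.87 and 11.55 in its wildtype, a change of -1.46 that was not called (adjusted p = 0.116). In Cog it read 11.07, 11.37 and 8.75, and in its wildtype 11.17, 10.98 and 10.9. Both probes were lower on all Schmid arrays than on all their wildtype arrays, and both were lowest in Cog on replicate 3. The brighter probe was well above background on 2 of the 3 Schmid and 2 of the 3 Cog arrays. The dimmer one was so on all 3 Schmid arrays and on 2 of the 3 Cog arrays. The call of the dimmer probe was lost in 10 of 24 alternative settings, among them without Schmid replicate 1 or 3 or wildtype replicate 2 or 3 (adjusted p 0.0654 to 0.109).

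The other BMP ligands were not called in either mutant. Bmp4, a ligand that drives chondrocyte differentiation, read 9.64, 9.99 and 10.07 in Schmid and 10.38, 10.37 and 10.79 in its wildtype, and 11.09, 10.95 and 11.29 in Cog and 10.49, 10.72 and 10.47 in its wildtype. It lay below all wildtype arrays in Schmid and above all of them in Cog. The changes were -0.61 (adjusted p = 0.0239, under 2-fold) and 0.55 (adjusted p = 0.0912). Bmp5, a ligand of skeletal patterning, had the opposite sign in Schmid on its brightest probe, at 0.64 (adjusted p = 0.0454, under 2-fold), with 0.82 in Cog (adjusted p = 0.0509). Bmp6, a ligand known from hypertrophic chondrocytes, had a log2 fold change of -0.11 in Schmid (adjusted p = 0.851), against -0.03 for Cog (adjusted p = 0.973) on its brighter probe. Bmp2 was well above background on 1 array only.

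The 10 GDF ligands, each with 1 probe, gave no call by limma, and 2 in Schmid and 0 in Cog had an unadjusted p under 0.05. Their changes lay between -0.58 (Gdf7) and -0.01 (Gdf11) in Schmid and between -0.90 (Gdf10) and 0.40 (Gdf9) in Cog. Gdf5, a ligand of joint formation, was the one GDF well above background on all arrays. It read 11.04, 11.42 and 11.65 in Schmid, 11.3, 12.33 and 11.7 in its wildtype, 13.4, 12.3 and 11.39 in Cog and 10.96, 12.61 and 13.32 in its wildtype. The groups overlapped, and the changes were -0.40 in Schmid (adjusted p = 0.658), against 0.07 for Cog (adjusted p = 0.965).

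The extracellular regulators held the most lower calls of any role in Schmid. Ltbp3, a latent TGF-beta binding protein of the matrix, read 12.13, 12.11 and 11.99 in Schmid and 14, 13.8 and 13.86 in its wildtype. In Cog it read 15.1, 14.88 and 14.34, and in its wildtype 14.11, 14.16 and 14.47. The Schmid arrays lay below all 9 others, and the Cog arrays overlapped their wildtype. The change was -1.81 ± 0.18 in Schmid (fold change -3.5, adjusted p = 2.4e-04), against 0.53 ± 0.18 for Cog (adjusted p = 0.13). A dimmer Ltbp3 probe also lay lower on all Schmid arrays than on all their wildtype arrays, at -0.78 (adjusted p = 0.00377, under 2-fold).

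Ltbp4, a relative of Ltbp3 that binds latent TGF-beta 1, read 11.27, 11.48 and 11.21 in Schmid and 12.32, 12.83 and 12.62 in its wildtype. In Cog it read 12.27, 12.28 and 12.24, and in its wildtype 12.05, 12.42 and 12.42. Again only the Schmid arrays stood apart. The change was -1.27 ± 0.15 in Schmid (adjusted p = 5.2e-04), against -0.04 ± 0.15 for Cog (adjusted p = 0.921). With the row and GC trend removed, the Schmid change was -0.95 (adjusted p = 0.00124), under the 2-fold limit. Ltbp1 and Ltbp2, the other family members, were not called, with changes between -0.41 and 0.50 over their 4 probes in Schmid.

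Bmp1 encodes a metalloproteinase that trims procollagens and cleaves Chordin and Ltbp1, and both of its probes were called lower in Schmid. The brighter one read 11.71, 12.19 and 12.18 in Schmid, 14.52, 13.73 and 13.36 in its wildtype, 14.32, 13.86 and 14.47 in Cog and 14.46, 14.1 and 14.28 in its wildtype. The dimmer one read 11.08, 11.12 and 10.94 in Schmid, 12.57, 12.68 and 13.04 in its wildtype, 11.8, 11.48 and 11.93 in Cog and 11.08, 12.77 and 13.02 in its wildtype. On both, the Schmid arrays lay below all arrays of their wildtype, and the Cog arrays overlapped theirs. The changes were -1.84 ± 0.28 (adjusted p = 0.00161) and -1.72 ± 0.41 (adjusted p = 0.0141) in Schmid, and -0.06 and -0.56 in Cog (adjusted p = 0.924 and 0.473). The probes carry different accessions, NM_009755 and AK147534, and lie apart, at mm7 chr14:65119229-65119288 and chr14:65131329-65131388.

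Chrd encodes Chordin, an antagonist that holds BMPs away from their receptors, and it moved in opposite directions. Its signal was 11.21, 10.27 and 11.47 in Schmid and 11.76, 12.31 and 12.53 in its wildtype. In Cog it was 12.41, 12.24 and 12.48, and in its wildtype 10.45, 10.74 and 11.43. All Schmid arrays lay below, and all Cog arrays above, the arrays of their own wildtype. The change was -1.21 ± 0.34 in Schmid (adjusted p = 0.0267) against 1.5 ± 0.34 for Cog (adjusted p = 0.0343). The wildtype groups themselves differed by 1.33 (Schmid background minus Cog background, adjusted p = 0.101), with means of 12.2 and 10.87, beside 10.99 in Schmid and 12.38 in Cog. The Schmid call was lost in 9 and the Cog call in 10 of 24 alternative settings. Leaving out Schmid replicate 1 or 2 or wildtype replicate 2 or 3 gave adjusted p values of 0.0511 to 0.0881 in Schmid, and leaving out any Cog replicate or wildtype replicate 1 or 2 gave 0.0696 to 0.12 in Cog.

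Noggin and Grem1, which also trap BMPs, were not called. Nog had a log2 fold change of -0.67 in Schmid (adjusted p = 0.0262, under 2-fold), with all Schmid arrays below their wildtype, and of 0.26 in Cog (adjusted p = 0.464). Grem1 was well above background on 1 Cog array and on no other array.

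The receptors gave 1 call among 23 probes. It was a dim Tgfbr2 probe (type II TGF-beta receptor), annotated to AK090393, that read 9.42, 9.23 and 9.39 in Schmid, 8.14, 8.06 and 7.98 in its wildtype, 8.68, 7.15 and 8.34 in Cog and 8.99, 9.21 and 9.07 in its wildtype. It was well above background on 2 Schmid arrays and on no other array, so the fitted change of 1.29 in Schmid (adjusted p = 0.014) has only a bound behind it, and no fold above 1 could be set against the floor of the wildtype arrays. The brightest Tgfbr2 probe, annotated to NM_009371, read 12.57, 12.51 and 12.61 in Schmid and 13.52, 11.91 and 11.87 in its wildtype, and 11.36, 11.59 and 11.06 in Cog and 13.23, 12.61 and 12.02 in its wildtype. It overlapped in Schmid (0.13, adjusted p = 0.843), and in Cog all 3 arrays lay below their wildtype without passing the test (-1.28 ± 0.42, adjusted p = 0.114).

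The other receptors were uncalled in both mutants, between -0.69 (Acvr2a) and 1.0 (Bmpr2) in Schmid, and in Cog limma called no receptor probe, with 5 of the 23 at an unadjusted p under 0.05. Bmpr2, the type II BMP receptor, read 14.4, 14.04 and 14.09 in Schmid, 14.44, 14.16 and 14.22 in its wildtype, 13.67, 14.29 and 14.34 in Cog and 15.45, 14.37 and 14.03 in its wildtype on its brightest probe. These groups overlapped, with changes of -0.10 in Schmid (adjusted p = 0.849), against -0.52 for Cog (adjusted p = 0.395). The dimmer Bmpr2 probes read 0.78 (adjusted p = 0.138, all Schmid arrays above their wildtype) and 1.0 (adjusted p = 0.178, overlapping) in Schmid. On its brighter probe Bmpr1a, a type I BMP receptor, had a log2 fold change of 0.43 in Schmid (adjusted p = 0.236), against -0.69 for Cog (adjusted p = 0.149). The brighter probe of Tgfbr1, the type I TGF-beta receptor, read 0.54 (adjusted p = 0.275) and -0.23 (adjusted p = 0.752). The Acvr2a probe with the strongest signal, for an activin type II receptor, differed by -0.69 in Schmid (adjusted p = 0.00553, under 2-fold). Its 2 dimmer probes both read 0.48, but each was well above background on 1 Schmid array and on no other array.

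The Smad proteins and the Smurf ubiquitin ligases gave no call among 20 probes of 10 genes, all 10 of them well above background on some array. By limma, 2 probes in Schmid and 6 in Cog had an unadjusted p under 0.05. Smad4, the shared partner of the receptor-activated Smads, read 15.75, 16.2 and 16.24 in Schmid, 15.5, 15.79 and 15.82 in its wildtype, 15.12, 15.71 and 16.02 in Cog and 15.61, 15.57 and 15.64 in its wildtype. The groups overlapped on this brighter Smad4 probe, and the changes were 0.36 in Schmid (adjusted p = 0.244), against 0.01 for Cog (adjusted p = 0.992). The dimmer Smad4 probe read 1.25 in Schmid (adjusted p = 0.19), also with overlap. The BMP-activated Smad1 and Smad5 read -0.21 (adjusted p = 0.609) and 0.27 (adjusted p = 0.56) in Schmid on their brightest probes. Smad7, an inhibitory Smad, had all mutant arrays above their wildtype in both comparisons, at 0.77 in Schmid (adjusted p = 0.135), against 1.04 for Cog (adjusted p = 0.128), and neither passed the test. Smurf1, which tags BMP Smads and receptors for degradation, read lower on both probes in Schmid (-0.72 and -0.95, adjusted p = 0.21 and 0.107) without passing the test.

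The Id genes, inhibitors of basic helix-loop-helix factors and direct targets of BMP Smads, did not move as 1 group. Id3 fell in both mutants. Its signal was 10.93, 11.44 and 11.3 in Schmid and 13.01, 12.47 and 12.65 in its wildtype, and 11.54, 11.93 and 12.39 in Cog and 13.37, 12.7 and 13.14 in its wildtype. Neither mutant overlapped its wildtype. The change was -1.49 ± 0.25 in Schmid (fold change -2.81, adjusted p = 0.00267), against -1.12 ± 0.25 for Cog (fold change -2.17, adjusted p = 0.0354), and the test of their difference was not passed (-0.38 ± 0.36, adjusted p = 0.494). The Schmid call was lost only when tested against a 2-fold change. The Cog call was lost in 14 of 24 alternative settings, among them without any one of Schmid replicates 2 and 3, Cog replicates 1 and 2 and all 3 wildtype replicates of the Cog background (adjusted p 0.0518 to 0.102). With the replicate number as a block it had an adjusted p of 0.055.

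Id1, the Id gene most used as a readout of BMP signalling, read 13.06, 13.48 and 13.38 in Schmid, 14.43, 13.91 and 13.59 in its wildtype, 14.49, 14.71 and 14.56 in Cog and 14.77, 14.44 and 14.31 in its wildtype on its brighter probe. All Schmid arrays lay below their wildtype, and Cog overlapped. The change of -0.67 in Schmid (adjusted p = 0.0434) was under 2-fold, and the second probe read -0.65 (adjusted p = 0.0565). In Cog the probes read 0.08 and -0.14 (adjusted p = 0.861 and 0.77). Id2 was not called on either probe, with 0.10 and 0.09 in Schmid and 0.80 and 0.13 in Cog.

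The 2 probes of Id4 disagreed. The one with the slightly lower mean signal read 10.88, 10.75 and 10.99 in Schmid, 11.68, 12.18 and 11.53 in its wildtype, 9.2, 10.98 and 8.5 in Cog and 11.33, 12.11 and 11.64 in its wildtype. All Cog arrays lay below their wildtype and 2 of the 3 were not well above background, and the change was -2.14 ± 0.51 (adjusted p = 0.0416). The other probe read 10.01, 10.23 and 10.3 in Schmid, 11.12, 12.24 and 10.2 in its wildtype, 11.89, 10.79 and 11 in Cog and 11.37, 12.06 and 10.72 in its wildtype. It overlapped in Cog, at -0.15 (adjusted p = 0.891). In Schmid the probes read -0.92 and -1.01, neither passing the test (adjusted p = 0.202 and 0.159). The Cog call was lost in 14 of 24 alternative settings, including without any one of 10 of the 12 arrays (adjusted p 0.051 to 0.147, the arrays that did not matter being wildtype replicate 1 of the Schmid background and Cog replicate 2).

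Of the 61 genes, 26 had several probes, 60 probes in all. In Schmid, 5 of these genes had a called probe (Inhbb, Bmp1, Ltbp3, Bmp7 and Tgfbr2), and Bmp1 was the one gene of which every probe was called. In Cog, 2 had a called probe (Inhbb and Id4) and neither had every probe called. Levels of different probes cannot be set against each other, so the disagreement is given as changes alone.

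**Figure D3:**
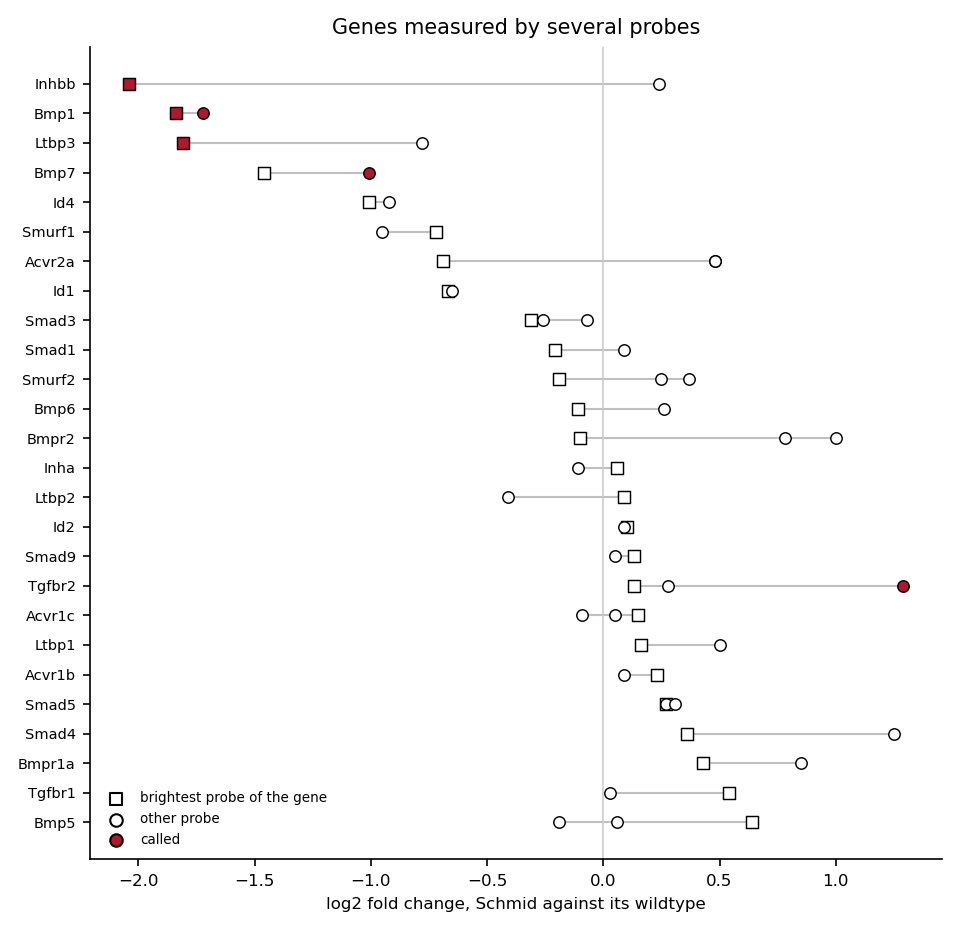
Log2 fold change in Schmid of every probe of the 26 genes with several probes, 1 gene a row, squares for the brightest probe, circles for the others, and red for called probes. The probes of Id1 and Bmp1 nearly coincide, while those of Inhbb lie at -2.04 and 0.24 and those of Tgfbr2 range from 0.13 to 1.29.

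Position on the array was looked at because probes in its upper part read lower in Schmid. Over single-spot probes in rows 1 to 159, the median change in Schmid was -0.25, 10.4% were called lower and 5.01% higher. In rows 160 to 532 the median was 0.01, 2.27% were called lower and 6.08% higher. Of the member probes in the upper part, 3 of 27 (11.1%) were called lower, namely Bmp8a, Bmp1 (brighter probe) and Ltbp4, and their median was -0.27. In the lower part 6 of 64 (9.38%) were called, namely Tgfb3, Inhbb, Bmp1 (dimmer probe), Chrd, Ltbp3 and Id3, and their median was 0.06. The called probes of Tgfb1 and Bmp7 have 10 spots each and enter neither. With the trend over rows and GC content removed, 6 of the 11 lower calls remained (Tgfb3, Inhbb, both Bmp1 probes, Ltbp3 and Id3).

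Whether a gene changed differently in the mutants was tested as the Schmid change minus the Cog change. Of the 95 probes, 6 were called lower in this difference (6.32%, against 5.88% of all probes) and 1 higher (1.05%, against 4.38%). The lower ones were Tgfb3 (-2.73 ± 0.25, adjusted p = 4.1e-04), Chrd (-2.72 ± 0.48, adjusted p = 0.00487), Ltbp3 (-2.33 ± 0.26, adjusted p = 7.4e-04), the brighter Bmp1 probe (-1.78 ± 0.40, adjusted p = 0.0142), Ltbp4 (-1.24 ± 0.22, adjusted p = 0.00483) and Bmp4 (-1.16 ± 0.23, adjusted p = 0.00923). Tgfb3 and Ltbp3 were called in every alternative setting, and Chrd in all but the test against a 2-fold change, which also ended the other 3 calls. With the processed signal at the 75th percentile the calls of Bmp1 (-1.32, adjusted p = 0.106) and Ltbp4 (-0.95, adjusted p = 0.149) were lost. With the row and GC trend removed, Ltbp4 (-0.80) and Bmp4 (-0.89) came under 2-fold, as Bmp4 just did with array weights. The higher one was the dim Tgfbr2 probe (2.32, adjusted p = 0.00655), whose value was 0.01 with the scanner's processed signal. The wildtype groups were also compared, and limma called no member probe between them in either direction, against 0.233% of all probes called higher and 0.236% lower. By limma, 15 member probes had an unadjusted p under 0.05, a count whose share over all probes was not computed.

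**Figure D4:**
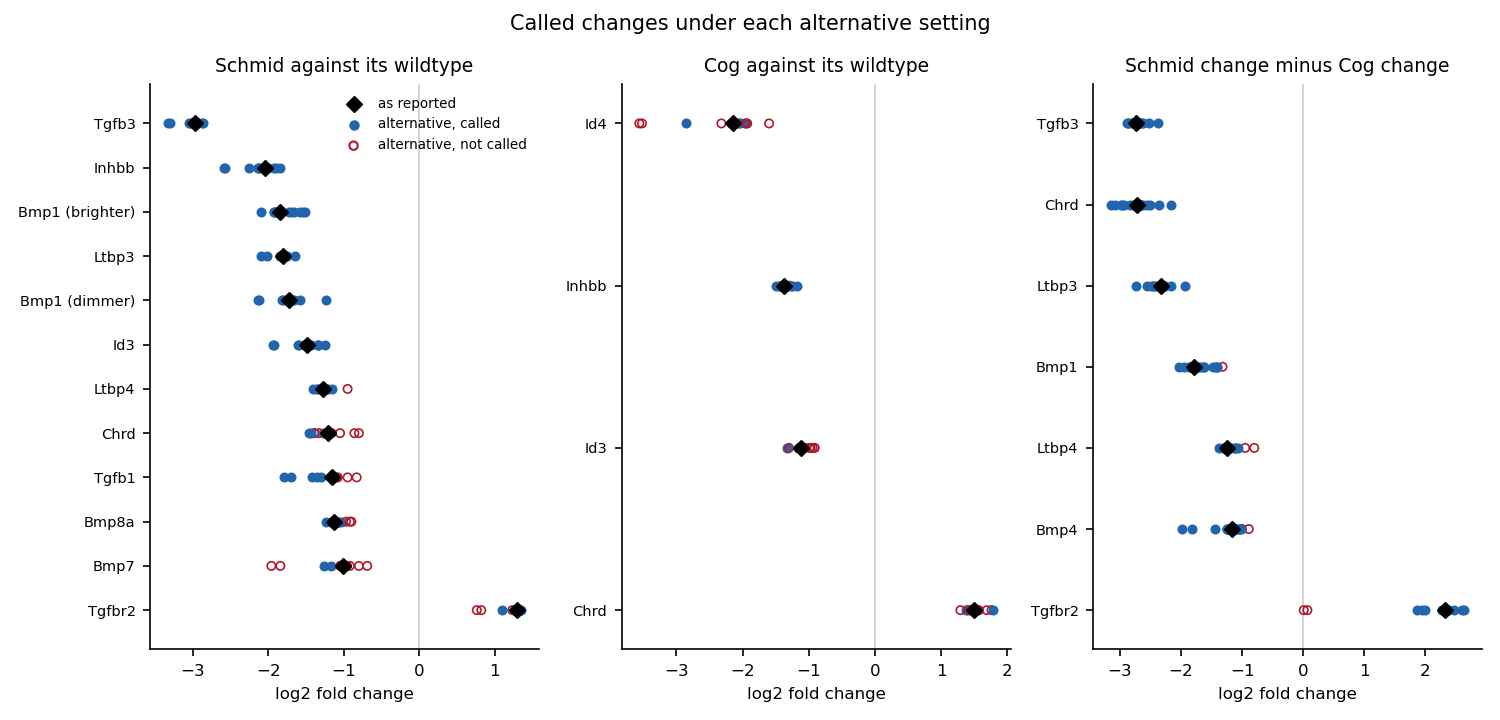
Log2 fold changes of the called probes as reported (diamonds) and under the alternative settings (filled circles where still called, open circles where not), for Schmid, Cog and the Schmid change minus the Cog change. Tgfb3 stays between -3.33 and -2.87 in Schmid and is called throughout, while Id3 and Id4 in Cog have many open circles. Points of the test against a 2-fold change have the same value as the diamond and are hidden under it.

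Other genes of the pathway, a list of 45 with 76 probes, had 6 probes called higher and 6 lower in Schmid (7.89% each way, against 5.78% and 4.69% of all probes), and gave no call by limma in Cog (3 probes passed the adjusted p alone, and 17 had an unadjusted p under 0.05). The higher ones included the TGF-beta target Klf10, an early response gene, at 1.40 (adjusted p = 0.014). Msx2, a BMP-responsive homeobox gene, was also called higher (1.05, adjusted p = 0.0368), but it was well above background on 1 of the 3 wildtype arrays only. Of the 2 probes of Dcn, a matrix proteoglycan that binds TGF-beta, the dim one was called (2.01, adjusted p = 0.00355), but it was not above background on the wildtype arrays, which leaves a bound of at least 1.53-fold, and the bright one overlapped between groups (0.64, adjusted p = 0.403). Of the 3 probes of Ski, a repressor of Smads, the one of middle signal was called (1.13, adjusted p = 0.0246), while the brightest (0.66, adjusted p = 0.192) and the dimmest (0.11, adjusted p = 0.79) were not. The lower ones were the brighter probe of Sost, the Wnt antagonist sclerostin (-1.75, adjusted p = 4.4e-04, against 0.17 on its dimmer probe), the secreted Fstl1 (-1.47, adjusted p = 0.00849), the BMP antagonist Nbl1 (-1.26, adjusted p = 0.0165), Map3k7ip1, a partner of the TAK1 kinase (-1.50, adjusted p = 0.00551), Tgif2, a Smad corepressor (-1.45, adjusted p = 0.0265), and 1 of 4 probes of the kinase Hipk2 (-1.29, adjusted p = 5.5e-04), the second brightest, which was well above background on 1 of the 3 Schmid arrays. The brightest Hipk2 probe read -0.94 (adjusted p = 0.00704, under 2-fold), and the others read -0.36 and -0.07. The median change of the 76 probes in Schmid was -0.12, beside -0.06 over all probes.

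Markers of several cell types differed between mutant and wildtype, first in Schmid. Of 7 endothelial markers, 4 were called lower (Cdh5, Kdr, Flt1 and Emcn, with changes of -2.28 to -1.40) and none higher, and their summed log2 signal ran from 12.7 to 13.51 on the Schmid arrays, against 14.56 to 15.55 in wildtype. Pecam1, another of the 7, was well above background on none of the arrays. Of 4 red cell markers 3 were called lower, the sum running from 14.46 to 15.96 against 17.91 to 19.87. Of 7 hypertrophic chondrocyte markers 3 were called lower (Ihh with a change of -3.55, Akp2 with -1.11 and Pthr1 with -1.20), with sums from 18.84 to 19.2 against 19.44 to 20.18, and of 6 osteoblast markers 1, Col1a1. None of the chondrocyte, osteoclast, neutrophil, muscle or fibroblast markers was called. The chondrocyte sum still ran lower on the Schmid arrays, from 20.54 to 20.71 against 20.82 to 21.11 in wildtype. The osteoclast sum ran from 13.22 to 13.53 against 13.64 to 14.92. The osteoblast, neutrophil, muscle and fibroblast sums overlapped between Schmid and its wildtype. In Cog, Ihh and the osteoblast marker Dmp1 were called lower and no other marker was called. The endothelial sum ran from 14.1 to 14.99 on the Cog arrays, against 15.13 to 15.38 in their wildtype. Cdh5 was lower there by 0.67 on the log2 scale (limma, adjusted p = 0.038, under 2-fold). The neutrophil sum ran from 14.49 to 16.92, against 13.47 to 13.98. The sums of the other cell types overlapped between Cog and its wildtype. The part of these shifts in the changes of Tgfb3, Tgfb1, Inhbb, Bmp1, Ltbp3, Ltbp4 and Id3 was not tested.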

How the data were processed

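RNA from the hypertrophic zone of 1 tibia of each mouse went through 2 rounds of linear amplification and was labelled with Cy3. The authors deposited, per array, the scanner's output from Agilent Feature Extraction 9.5.3 (per their processing notes), with every spot's intensity, together with a matrix of log2 values that correlated with the values made here at 0.99987 or more.

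As in the methods of the study, the deposited intensity was background corrected (normexp, offset 50), control probes were dropped, arrays were quantile normalized, and repeated spots were averaged. Outlier spots were left out (99.8% kept). Group means over all 12 arrays were fitted with limma 3.58.1 in R 4.3.3 (8 residual degrees of freedom), and the procedure was also run on simulated data. Those data held independent noise, without effects of slide or array row, so they cannot speak to either effect. Gene names and mm7 probe positions are those of the array annotation. Of each gene, the called probes (at most 2) and its brightest probe, and the gene with the strongest signal in each role, are given array by array. The members, the lists, the array rows set apart and the promoter windows shown were chosen with earlier results of these data known. Alternatives changed the signal, scaling, filter, blocks, weights, arrays and test. The number of arrays limits the precision. The values of a member and of another gene of the pathway are not reported here.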

Additional observations from a re-analysis of the deposited data

Results flagged for a closer look

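The change in Schmid and the change in Cog differed (Schmid change minus Cog change, log2 scale, limma's adjusted p of 0.05 or less over all probes) for 14 of the 95 probes. The share of all probes passing this limit was not computed, so the count has no background beside it. With the 2-fold limit added, 6.32% were called lower and 1.05% higher, against 5.88% and 4.38% of all probes. Besides the 7 described above, Tgfb3 (-2.73), Chrd (-2.72), Ltbp3 (-2.33), Bmp1 (-1.78), Ltbp4 (-1.24), Bmp4 (-1.16) and the dim Tgfbr2 probe (2.32), 7 had differences under 2-fold. Bmp8a, the BMP7 relative, differed by -0.88 (adjusted p = 0.0321), from -1.13 in Schmid and -0.25 in Cog. The dimmer Ltbp3 probe differed by -0.98 (adjusted p = 0.00951), with the same sign as the brighter one, and the BMP antagonist Nog by -0.92 (adjusted p = 0.0374). Gdf7, a ligand of the GDF5 subgroup, differed by -0.80 (adjusted p = 0.0112), from -0.58 and 0.22. For the receptors the differences were -0.85 for Tgfbr3, the TGF-beta co-receptor betaglycan (adjusted p = 0.0374), -0.75 for Acvr2a (adjusted p = 0.0246) and -0.65 for Acvr2b (adjusted p = 0.009). Acvr2b was well above background on none of the arrays, and Tgfbr3 on 3. The probes of Bmp1, Ltbp4, Bmp8a, Gdf7, Acvr2a, Acvr2b, Tgfbr3 and the dimmer Ltbp3 probe all have their spot within array rows 1 to 159, over which all probes had a median Schmid change of -0.25, and the part of position in these differences was not tested.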

How the results depend on the processing

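No called change of a member reversed its sign in any setting. The counts below are of all member probes called in a setting, and these need not be the probes called as reported. In Schmid the 11 lower calls became 6 with the row and GC trend removed, 2 (Tgfb3 and Inhbb) when tested against a 2-fold change, and 7 to 12 with 1 array left out, lowest without Schmid replicate 1. The count of higher calls in Schmid, 1 as reported (the dim Tgfbr2 probe), became 0 with normexp scaled to the 75th percentile. It was also 0 without dim probes (24320 probes kept) and against a 2-fold change, and 2 with array weights. With 1 array left out it was 1 to 3, highest without wildtype replicate 1 of the Schmid background. With the processed signal at either scaling the Tgfbr2 probe was not called, in Schmid or in the difference between the mutants, and another member probe was counted. In Cog the 3 lower calls became 1 with the processed signal and quantiles or with the compared arrays only, 0 with the processed signal at the 75th percentile or against a 2-fold change, 5 with slide as a random block, 7 with array weights, and 1 to 4 with 1 array left out, lowest without Schmid replicate 2 or 3 or Cog wildtype replicate 2 or 3. The count of higher calls in Cog, 1 as reported (Chrd), became 2 with the processed signal and quantiles, the slide block or array weights. It was 0 with either signal at the 75th percentile, the compared arrays only or a 2-fold test. With 1 array left out it was 0 to 2, lowest without Cog replicate 3 or Cog wildtype replicate 1 or 2. Chrd itself was also not called with the processed signal and quantiles, or without Cog replicate 1 or 2, where other member probes were counted. For the difference between the mutants, the 6 lower calls became 13 with the processed signal and quantiles, 11 with normexp at the 75th percentile, 2 against a 2-fold change and 6 to 8 with 1 array left out, and the 1 higher call became 2 with normexp at the 75th percentile or the trend removed, 3 with array weights, 4 with the slide block, 0 without dim probes or against a 2-fold change, and 1 to 4 with 1 array left out, highest without wildtype replicate 1 of the Schmid background. Between the wildtype groups 1 probe was called higher with the slide block and 1 lower with array weights, and 0 to 1 each way with 1 array left out. The causes were not tested. Scaling to the 75th percentile moved the median change of all probes in Schmid from -0.06 to -0.40 with the processed signal and to -0.35 with normexp, and in Cog from 0 to 0.43 and 0.01. Higher calls were 55.2% of all calls in Schmid, against 42.0% with the processed signal and quantiles, 42.5% with it at the 75th percentile and 42.6% with normexp at the 75th percentile.

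Nothing in the labels says that equal replicate numbers pair mice. Over all probes, deviations of same-numbered arrays correlated by 0.193, 0.171 and 0.066 in Schmid, -0.116, 0.072 and -0.106 in Cog and 0.407, 0.046 and 0.19 between wildtypes. Over the probes well above background on every array the correlations were 0.306, 0.283 and 0.117 in Schmid, -0.209, 0.153 and -0.201 in Cog and 0.505, 0.115 and 0.274 between wildtypes, above 0.1 for every pair except in Cog, and 4, 2 and 3 of 6 arrays correlated best with their own number. With the replicate number as a block, 1 probe was called higher and 11 lower in Schmid, 1 and 2 in Cog, 1 and 6 in the difference and 0 and 0 between wildtypes. For probes not well above background, the signal limits what can be read.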
